A study of Mus musculus with 16 samples.

Results

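The 10 genes described here are members and transcriptional targets of the p53 family: Trp53, Trp63, Mdm2, Cdkn1a, Ccng1, Sesn1, Trp53inp1, Zmat3, Phlda3 and Eda2r. They were chosen by name, with earlier results of these data known. Their rows are those whose Ensembl gene ID, without its version, belongs to 1 of those symbols. They make up 10 of the 55414 gene rows in each of the 4 deposited tables. All 10 were present in every table, and all 10 passed the filter on low values in each comparison.

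The p53 protein is a transcription factor that is held at a low level by Mdm2, a ubiquitin ligase that marks it for destruction. DNA damage and other stresses release p53 from this control, and it then switches on genes that stop the cell cycle, adjust metabolism or prepare cells for death, together with Mdm2 itself, which closes a feedback loop. Its relative p63, the product of Trp63, binds similar DNA sites and is best known in the germ line for the removal of damaged oocytes. In the testis, p53 is known for its part in the death of germ cells after DNA damage.

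RNA was sequenced from 16 mouse testis libraries taken at postnatal day 14 (P14) or 16 (P16). By these ages the first germ cells of the animal have already entered meiosis. The series title puts the question as a late role in spermatocytes of YTHDC2, an RNA helicase. The groups were control (2 libraries per stage), Ythdc2 conditional knockout (cKO, 3 per stage) and Cre control (2 at P14 and 4 at P16), and per the labels tamoxifen at 10 mg/ml was given to mice of all 3 kinds on P12 and P13. The labels give neither the alleles nor the promoter that drives Cre, so the cells in which the gene was deleted and the genotype of each control type are not known here, and they do not say whether replicates came from separate animals, so p-values measure only the spread between these libraries. Ribosomal RNA was removed with Ribo-Zero components in the controls and in cKO libraries 1 and 2 of each stage (the first kit), and with a NEBNext depletion kit in the Cre controls and cKO library 3 of each stage (the second kit). Per the column names, no sequencing run held libraries of both kits. A difference between the kits is thus also one between runs.

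Reads on genes numbered 22220565 to 27531529 in the 8 libraries of the first kit and 14494867 to 23200252 in the 8 of the second. The kits stood apart: mitochondrial genes took 11.3% to 13.5% of gene reads with the first and 0.40% to 0.813% with the second. Ythdc2 reads checked the labels. In the tables without Cre controls, the cKO mean was 32.9% of the control mean at P14 and 19.8% at P16, and every cKO library was below every control library in all 4 tables. Of the markers of testis cells, Sertoli cell genes such as Sox9 (1928 to 4407 reads) and meiotic genes such as Sycp3 (3321 to 13026 reads) were present in every library. Insl3 of mature Leydig cells had 0 reads in 10 libraries and at most 3 in the others, and Acrv1 of late germ cells had 0 reads in 8 and at most 6 in the others. The other markers on their lists had reads in every library, such as Hsd3b1 of Leydig cells (702 to 3777) and Hspa2 of pachytene and later cells (4727 to 21339).

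The sequences upstream of 3 of the genes are shown because these genes hold the stop signal and the feedback loop of the pathway and changed in opposite directions at P16. RefSeq promoter windows (build GRCm38.p6, 250 bases before to 50 after a start site) matched 7 of the 10 genes, with 9 windows. Trp63, Trp53inp1 and Zmat3 had none. Capitals mark matches to the p53 consensus half-site, a motif of 10 bases, on either strand, with its core kept and at most 1 mismatch elsewhere. The 250 bases before the start site are given 5′ to 3′ on the gene's strand, for Cdkn1a (chr17:29090729-29090978, plus strand), Mdm2 (chr10:117710759-117711008, minus strand) and Ccng1 (chr11:40755287-40755536, minus strand).
Cdkn1a: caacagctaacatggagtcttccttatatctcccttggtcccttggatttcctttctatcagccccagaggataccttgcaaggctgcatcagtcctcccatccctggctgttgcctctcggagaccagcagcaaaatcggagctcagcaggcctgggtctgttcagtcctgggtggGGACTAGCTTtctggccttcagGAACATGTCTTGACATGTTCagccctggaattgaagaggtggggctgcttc
Mdm2: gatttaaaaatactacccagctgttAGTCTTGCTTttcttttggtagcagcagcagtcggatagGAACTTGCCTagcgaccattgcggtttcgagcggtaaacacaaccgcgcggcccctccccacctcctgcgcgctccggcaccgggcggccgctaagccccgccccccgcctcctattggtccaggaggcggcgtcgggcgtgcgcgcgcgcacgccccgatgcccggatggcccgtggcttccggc
Ccng1: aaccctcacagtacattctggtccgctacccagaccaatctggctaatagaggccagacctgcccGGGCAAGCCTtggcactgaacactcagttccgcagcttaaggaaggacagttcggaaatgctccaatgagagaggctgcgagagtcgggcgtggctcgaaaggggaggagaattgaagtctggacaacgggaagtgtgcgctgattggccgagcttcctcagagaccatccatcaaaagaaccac
The Cdkn1a window, which belongs to the first of the 2 start sites that matched this gene, held 3 half-sites, starting 73, 51 and 41 bases before the start site, and the last of them directly followed the one before it as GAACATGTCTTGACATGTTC. The window of the second Cdkn1a start site, which is not shown, held no half-site. The Mdm2 window held half-sites starting 225 and 186 bases before the start, too far apart for a pair, and the Ccng1 window held 1, at 185 bases before. Of the 9 windows, 6 held a half-site, 5 a perfect one and 1 a pair with a spacer of at most 13 bases. Among all 32851 windows of that length, 39.6% held a half-site, 8.36% a perfect one and 1.39% a pair. The other windows with a half-site belonged to Trp53, the second Sesn1 start site and Eda2r. A match describes the letters only, and no binding was measured.

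Levels of different genes were compared as RPKM, with the exon length of the annotation and the reads on genes as the total. In the P16 controls of the first kit, Mdm2 stood highest at 24.4 ± 0.203 (SD, n = 2), followed by Trp53inp1 at 21.3 ± 0.722 and Sesn1 at 18.5 ± 0.332. Ccng1 at 15.3 ± 0.18, Trp53 at 10.6 ± 0.581 and Phlda3 at 7.19 ± 0.182 came next, and these 6 genes did not overlap with their neighbours in the order. The other 4 were about an order of magnitude lower: Zmat3 at 0.838 ± 0.0226, Trp63 at 0.670 ± 0.0632, Cdkn1a at 0.609 ± 0.0644 and Eda2r at 0.429 ± 0.0660. Among these, Trp63 and Cdkn1a overlapped in their libraries, and the other neighbours did not. The order depended on the kit: in the 4 Cre controls at P16, Trp53 was second at 19.2 ± 1.33 and Trp53inp1 only the fifth at 12.01 ± 1.42, so the tests of the groups were made within a kit or with the kit as a term, and values that mix the kits are named as such.

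At P16, against the controls of the same kit, 7 of the 10 genes rose in the cKO, Mdm2 fell, and Trp53 and Phlda3 did not pass the test. A gene is termed called where limma's p-value, adjusted by Benjamini-Hochberg over all genes tested, was under 0.05. Called genes made up 38.6% of the 17986 tested, with 18.6% higher and 19.9% lower, so a change at this stage was common among all genes. The median log2 change (cKO minus control) was 0.26 over the 10 genes and -0.000495 over all genes. As the 10 genes were chosen with earlier results of these data known, this contrast is a description and not a test. Over the 45 tested genes of a wider p53 pathway list, described below, the median was -0.05. The cKO libraries lay above both controls for 8 of the 10 genes and below them for Mdm2, against 69.7% of all genes with groups that did not overlap. In whole testis, fewer cells of a type and less RNA per cell cannot be told apart. Values below are deposited normalized counts, scaled within each table, and fold changes are on the log2(value + 1) scale.

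**Figure D1:**
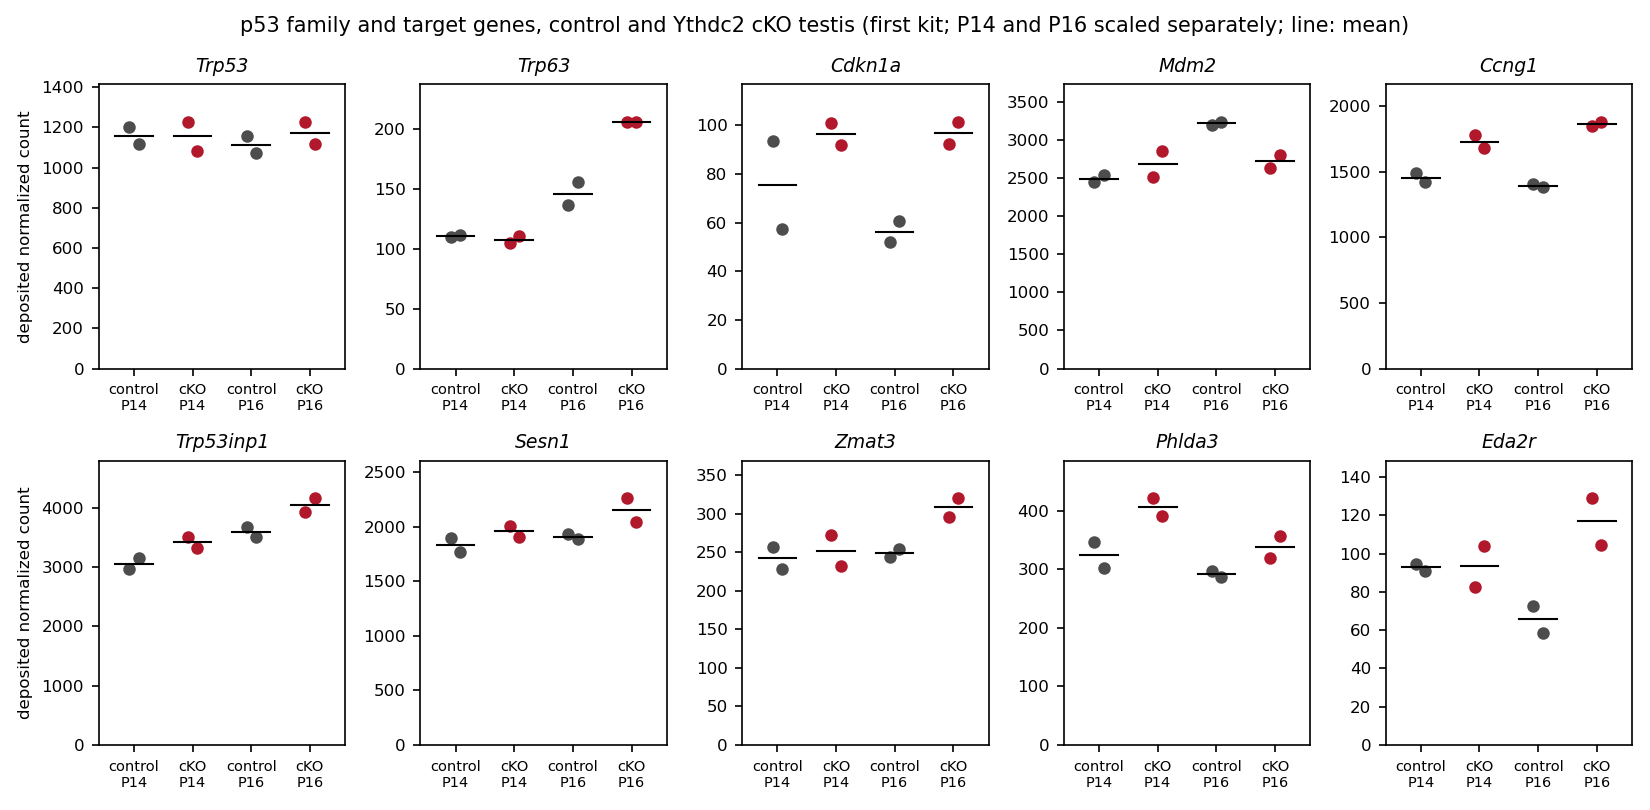
Deposited normalized counts (y axis, from 0) of the 10 genes in the control (grey) and cKO (red) libraries of the first kit at P14 and P16, with 1 point per library and a line at each group's mean. At P16 the cKO points lie above the control points for all genes but Trp53, where they overlap, and Mdm2, where they lie below, and the stages were scaled separately.

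The 2 family members differed. Trp53 was at 1156.5 and 1072.8 in the P16 controls, against 1229.5 and 1118.6 in the cKO. The groups overlapped, and the log2 change was 0.07 (SE 0.066, limma adjusted p = 0.404). Trp63 was at 136.1 and 156.0 in the controls, against 205.7 and 206.1 in the cKO. Both cKO libraries were above both controls, and Trp63 rose by 0.50 (SE 0.12, limma adjusted p = 0.00692).

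Mdm2, the ligase that limits p53 and is itself a target, had the highest RPKM of the 10 genes in the P16 controls and the third highest in the first-kit cKO libraries (20.5 ± 0.927, SD, n = 2). It was at 3199.4 and 3245.0 in the controls, against 2640.5 and 2808.8 in the cKO at P16, so both cKO libraries were below both controls. It fell by 0.24 (SE 0.048, limma adjusted p = 0.00160).

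Both members that act on the cell cycle rose. Cdkn1a encodes p21, an inhibitor of cyclin-dependent kinases, and was at 52.0 and 60.5 in the P16 controls, against 92.2 and 101.5 in the cKO. The groups were apart, on 50 to 98 reads per library, and the log2 change was 0.78 (SE 0.18, limma adjusted p = 0.00441). Its exons overlap those of a gene on the other strand, AC167363.2, in the GENCODE M21 annotation, and the strand setting of the counting is not given in the sources used here, so reads of the pair may not have been told apart. Ccng1 encodes cyclin G1, which binds Mdm2 and a protein phosphatase. It was at 1403.8 and 1383.8 in the controls, against 1851.6 and 1883.9 in the cKO, with little spread in either group. Its rise of 0.42 (SE 0.051, limma adjusted p = 4.91e-05) had the smallest adjusted p of the 10 genes.

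Both members linked to stress and metabolism rose. Trp53inp1, which encodes a protein that promotes p53 activity and autophagy, was at 3670.1 and 3506.8 in the controls, against 3934.1 and 4166.6 in the cKO at P16. The groups did not overlap, and the rise was 0.17 (SE 0.047, limma adjusted p = 0.0111). Sesn1 encodes a sestrin, which restrains the growth kinase complex mTORC1. It was at 1931.7 and 1887.6 in the controls, against 2264.0 and 2046.5 in the cKO, again without overlap, and rose by 0.17 (SE 0.056, limma adjusted p = 0.0281).

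Zmat3, an RNA-binding protein that acts on splicing, was at 244.2 and 254.3 in the controls, against 296.0 and 320.0 in the cKO at P16, and rose by 0.30 (SE 0.099, limma adjusted p = 0.0278). Phlda3, which competes with the kinase Akt for membrane lipids, was at 296.1 and 286.4 in the controls, against 318.3 and 357.3 in the cKO. Its groups were apart, but the log2 change of 0.21 (SE 0.097) missed the threshold (limma adjusted p = 0.105). Eda2r, a receptor of the tumour necrosis factor family that binds the ligand ectodysplasin A2, was at 72.7 and 58.6 in the controls, against 129.1 and 104.6 in the cKO. It was the called member with the largest change, a rise of 0.82 (SE 0.18, limma adjusted p = 0.00326), on 62 to 133 reads per library.

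Ccng1 and Cdkn1a were called at P16 under all 12 alternative settings tried. The calls of Sesn1 and Zmat3 were each lost in 6 of 12. With DESeq2 the adjusted p was 0.0620 for Sesn1 and 0.143 for Zmat3, without the filter limma's adjusted p was 0.0876 and 0.0550, and without trend it was 0.190 and 0.0732. The other losses came from left-out libraries: Sesn1 without control 1, control 2 or cKO 1 (limma adjusted p = 0.0932, 0.161 and 0.177, respectively), where its change without cKO 1 was 0.10, and Zmat3 without control 1, control 2 or cKO 2 (limma adjusted p = 0.137, 0.0721 and 0.139, respectively). The Trp63 call was lost without control 1 (limma adjusted p = 0.0651) and the Trp53inp1 call without control 2 (limma adjusted p = 0.146). Without trend the calls of Trp63, Trp53inp1, Mdm2 and Eda2r were lost as well (limma adjusted p = 0.0836 for Mdm2 and 0.0632 for Eda2r). No other setting lost the calls of Mdm2 and Eda2r.

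Marker genes of several cell types moved at the same stage, at which 18.6% of all genes were called higher and 19.9% lower. Of 10 macrophage markers, 8 were called higher in the P16 cKO, and their summed level was 177 and 185 CPM, of the reads on genes, against 128 and 130 in the controls. Of 15 Sertoli cell markers, 11 were called higher, with a summed level of 5851 and 6424 against 4908 and 5170. Of 12 spermatogonial markers, 10 were called lower and 1 higher (summed 635 and 651 against 860 and 866), and of 14 markers of early meiotic prophase, 12 were called lower and 1 higher (summed 2936 and 3236 against 3166 and 3311, which overlap). Of the pachytene and later markers, 6 were higher and 3 lower of 13 tested (summed 2046 and 2262 against 1904 and 1921). The Leydig markers had 3 higher of 9 tested (summed 233 and 264 against 206 and 215), and the peritubular myoid markers 1 higher of 7 (summed 334 and 392 against 314 and 337). On lists this short, the Leydig and myoid counts are close to the share of all genes called higher. Mitochondrial genes took 13.5% and 13.2% of the gene reads in these cKO libraries and 11.6% and 11.9% in the controls. None of these lists had a marker at 0 reads in every library. The part of these cell types and of the mitochondrial share in the changes of the 10 genes was not tested.

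At P14, 2 days earlier and against controls of the same kit, none of the 10 genes was called by limma, and 3 had an unadjusted p under 0.05: Ccng1, Phlda3 and Trp53inp1. Only 1 of 17270 genes tested was called, Ythdc2 itself (0.00579%). DESeq2 called 6 genes at P14, and none of them was among the 10. The cKO libraries were above both controls for 4 of the 10 genes and below them for 0, against 29.6% of all genes with groups that did not overlap.

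Ccng1 was at 1487.8 and 1422.9 in the P14 controls, against 1781.8 and 1680.4 in the cKO, which is higher by 0.25 on the log2 scale (SE 0.062). Phlda3 was at 345.6 and 302.3 against 391.2 and 421.4 in the cKO, a change of 0.33 (SE 0.11). Trp53inp1 was at 2973.4 and 3148.1 in the controls, against 3513.0 and 3321.9 in the cKO, with a change of 0.16 (SE 0.057). In all 3 genes both cKO libraries were above both controls, and the limma adjusted p was 1.00 after rounding.

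The genes with the largest rises at P16 had groups that overlapped at P14. Eda2r was at 94.7 and 91.0 in the P14 controls, against 82.5 and 104.2 in the cKO, and Trp63 at 109.8 and 111.6 against 104.9 and 110.4. Their groups overlapped, with log2 changes of -0.00190 (SE 0.18) for Eda2r and -0.04 (SE 0.15) for Trp63. Mdm2 was at 2445.9 and 2540.2 in the controls, against 2518.7 and 2853.0 in the cKO. Its groups overlapped too, with a change of 0.10 (SE 0.072). Cdkn1a was at 93.7 and 57.4 in the controls, against 101.0 and 91.8 in the cKO, so control 2 stood low and the change of 0.39 had an SE of 0.26. Trp53, Sesn1 and Zmat3 differed by -0.00553 to 0.10 at this stage, and none was called by limma.

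The second kit gave 1 cKO library per stage beside the Cre controls. With the kit as a term in the fit, the comparison of cKO and Cre control rests on that library, and it uses the same cKO libraries as the comparisons above to estimate the kit's part. At P16, limma called 0 of the 10 genes and 1 of 19200 genes in all, Ythdc2 (0.00521%). Of all genes tested, 3604 had an unadjusted p under 0.05, and of the 10 these were Mdm2 and Trp53inp1.

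**Figure D2:**
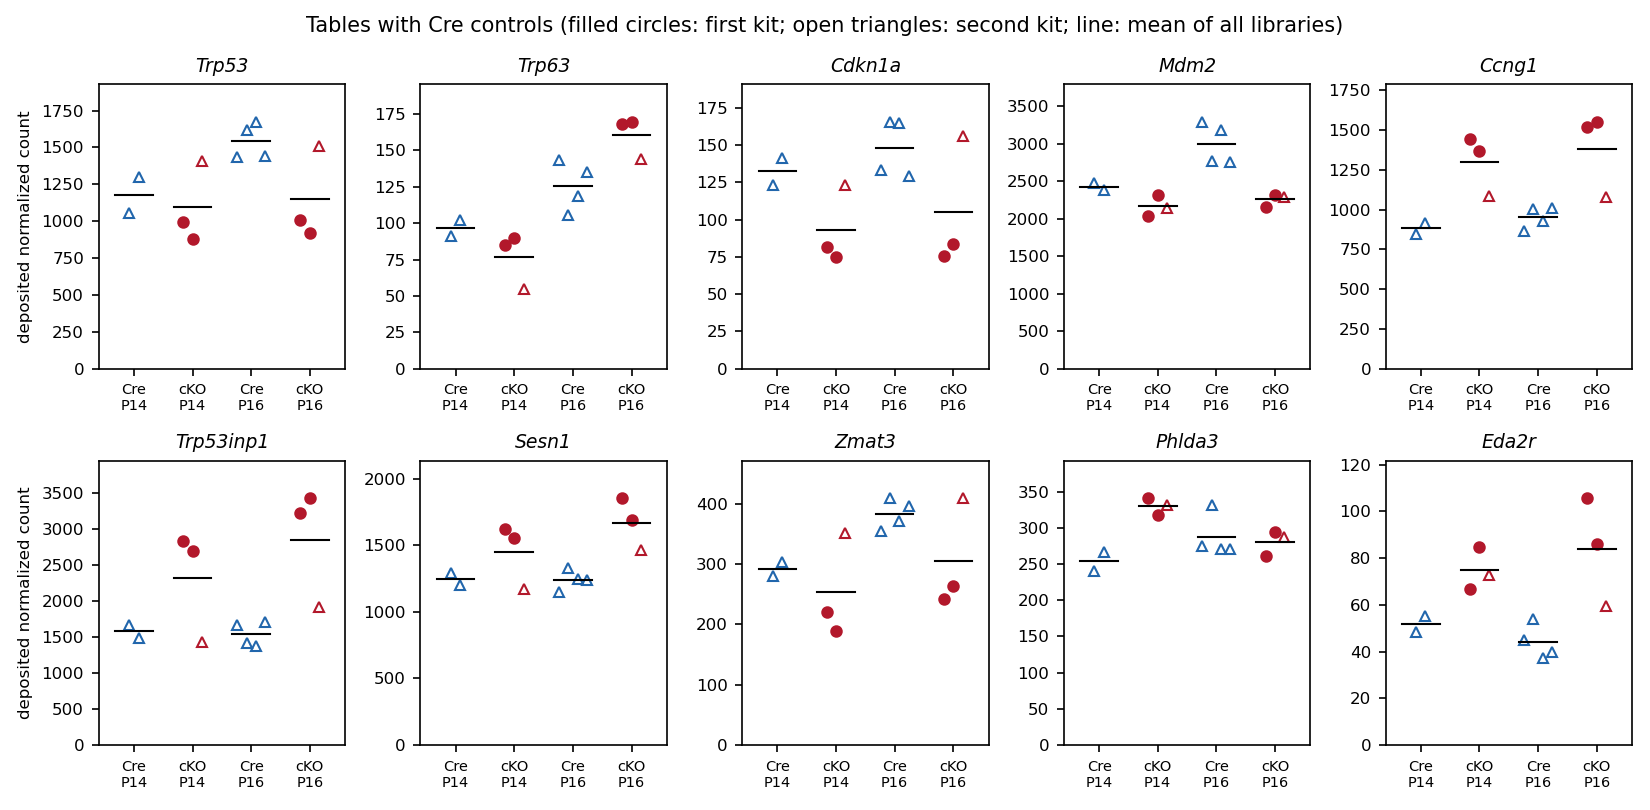
Deposited normalized counts (y axis, from 0) in the tables with Cre controls, for Cre control (blue) and cKO (red) libraries at P14 and P16. Filled circles are first-kit libraries, open triangles second-kit libraries, and lines the means of all libraries of a group. The cKO triangle lies apart from both cKO circles in most panels. Against the mean of the circles, it is lower by over 1.5 times for Trp53inp1 at both stages, Trp63 at P14 and Eda2r at P16. It is higher by over 1.5 times for Cdkn1a and Zmat3 at both stages and Trp53 at P16, with Trp53 at P14 close to that.

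Library for library at P16, Mdm2 was at 3298.5, 2776.1, 3185.7 and 2756.0 in the Cre controls and at 2296.3 in the cKO library of the same kit. That cKO library was below all 4, and the first-kit cKO libraries in the same table, at 2162.8 and 2315.6, were close to it. The log2 change was -0.38 (SE 0.12, limma adjusted p = 0.164). Eda2r was at 44.8, 53.9, 37.4 and 39.9 in the Cre controls and at 59.6 in that cKO library, above all 4. The change was 0.44 (SE 0.28, limma adjusted p = 0.431), on 39 to 52 reads in the controls and 45 in the shallower cKO library.

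Ccng1 was at 864.3, 1001.0, 925.7 and 1010.4 in the P16 Cre controls and at 1077.3 in cKO 3. Trp53inp1 was at 1674.5, 1420.7, 1378.6 and 1710.6 against 1917.7. Sesn1 was at 1150.4, 1330.6, 1245.4 and 1238.9 against 1462.5. In these 3 genes the cKO library was above every Cre control, with log2 changes of 0.18 (SE 0.12), 0.32 (SE 0.13) and 0.24 (SE 0.11), respectively. Trp63 was at 143.7, 105.7, 118.4 and 135.2 against 144.3, where the cKO library passed the highest control by less than 1 unit.

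The other 4 genes did not stand apart within the second kit. Cdkn1a was at 133.3, 165.8, 164.6 and 129.3 in the P16 Cre controls and at 156.2 in cKO 3, within their range, with a change of 0.08 (SE 0.22). Zmat3 was at 354.0, 409.3, 371.0 and 396.8 against 409.0, also within the range. Trp53 at 1512.8 and Phlda3 at 287.2 in cKO 3 lay within the Cre controls as well (1437.8 to 1675.6 and 270.4 to 331.6). The first-kit change of Cdkn1a, 0.78, was not seen within the second kit, where 2 SE on either side of its change ran from -0.35 to 0.52, and the difference between the kits was not tested.

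In all, cKO 3 at P16 was above every Cre control for 5 of the 10 genes, below for 1 and within their range for 4, while among all 19200 genes 24.0% were above, 30% below and 54.0% outside. With the first-kit cKO libraries included, which mixes the kits, the groups did not overlap for 6 of the 10 genes, 5 above and 1 below, against 30.1% of all genes. Values of several members differed between the kits: within the cKO at P16, the first-kit mean was 0.510 times the second-kit value for Cdkn1a, 0.619 times for Zmat3, 0.638 times for Trp53 and 1.74 times for Trp53inp1, but 0.975 times for Mdm2. A fit that ignored the kit, and so mixes the kits with the genotype, called 3 of the 10 genes, against 1741 of all 19200 genes. These were Trp53inp1 and Sesn1, higher, and Mdm2, lower (limma adjusted p = 0.0463, 0.0461 and 0.0417, respectively). Of the Cre controls at P16, library 1 was sequenced in the same run as cKO 3 per the column names, and the other 3 in another. Against library 1 alone, cKO 3 was lower for Mdm2 and higher for the other 9 genes. These included Cdkn1a (156.2 against 133.3), Zmat3 (409.0 against 354.0), Trp53, Phlda3 and, by less than 1 unit, Trp63. The share of all genes higher in this pair was not computed, and 1 library on each side gives no spread, so no conclusion is drawn from that count.

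Within the second kit at P16, limma called 0 markers of every cell type list, against 1 of all 19200 genes (0.00521%). That count thus does not show that the markers were unchanged. The median log2 change was 0.21 for macrophage, 0.15 for Sertoli cell, 0.03 for Leydig and 0.00417 for spermatogonial markers. It was -0.23 for peritubular myoid, -0.32 for early meiotic prophase and -0.25 for pachytene and later markers, against -0.03 over all genes. The macrophage markers summed to 182 CPM in cKO 3 and to 128 to 165 in the Cre controls. The Sertoli cell markers summed to 7470 against 5878 to 7189, and the spermatogonial markers to 900, within the 771 to 989 of the Cre controls. Mitochondrial genes took 0.813% of the gene reads in cKO 3 and 0.40% to 0.604% in the Cre controls. The part of these differences in the values of the 10 genes was not tested.

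A fit of all 9 P16 libraries on log2 CPM, with the kit as a term, put both control types together. It called 3 of the 10 genes, against 14.2% of the 19328 genes tested, with 6.36% higher and 7.80% lower. Mdm2 fell by 0.30 (SE 0.071, limma adjusted p = 0.0206). Ccng1 rose by 0.32 (SE 0.080, limma adjusted p = 0.0225) and Eda2r by 0.66 (SE 0.19, limma adjusted p = 0.0389).

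The remaining changes in the 9-library fit were 0.48 for Cdkn1a (SE 0.18, limma adjusted p = 0.0901), 0.38 for Trp63 (SE 0.14, limma adjusted p = 0.0895), 0.25 for Trp53inp1, 0.22 for Zmat3 and 0.21 for Sesn1, and each had an unadjusted p under 0.05 without being called. Phlda3 at 0.13 and Trp53 at 0.04 were not called. All 3 calls were lost without control 1, control 2, cKO 1 or cKO 2 of P16 (limma adjusted p of 0.0508 to 0.141 over the 3 genes). Without cKO 3 the calls of Mdm2 (limma adjusted p = 0.143) and Eda2r (0.0701) were lost, and without Cre control 3 that of Eda2r (0.0579).

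**Figure D3:**
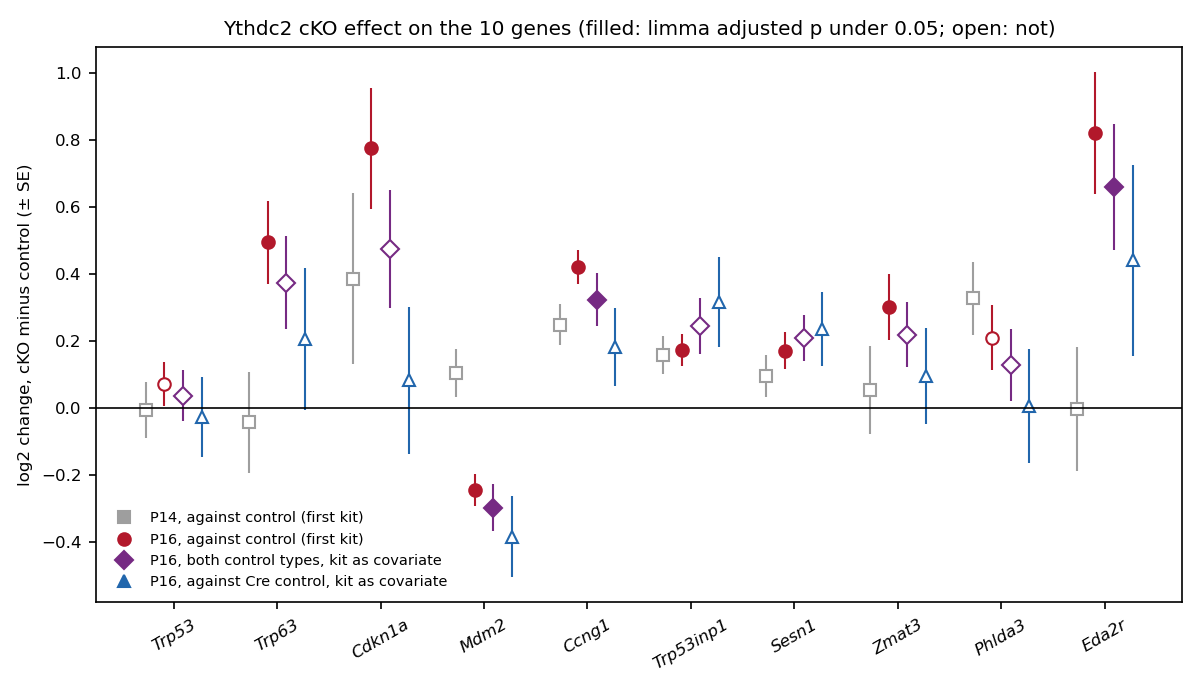
The log2 change (cKO minus control, ± SE) of each gene at P14 and P16 with the first kit, at P16 over both control types, and at P16 against the Cre controls. Filled symbols passed limma's adjusted p of 0.05, and Mdm2 is below 0 in each P16 fit, at -0.24, -0.30 and -0.38, while Eda2r and Ccng1 are above 0.

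At P14, the fit over both control types called 0 of the 10 genes and 1 of 18644 (0.00536%), again Ythdc2. Of the 10, Ccng1 at 0.26 (SE 0.060) and Phlda3 at 0.34 (SE 0.096) had an unadjusted p under 0.05 there. Against the Cre controls alone, limma called 0 of the 10 genes and 0 of 18196 genes (0%), with 447 genes at an unadjusted p under 0.05, and edgeR called 1 gene, which was not among the 10. In that table Ccng1 was at 844.7 and 917.2 in the Cre controls and at 1085.5 in cKO 3, and Phlda3 at 240.8 and 267.2 against 331.2, so both were above in cKO 3, as was Eda2r (48.4 and 55.4 against 72.9). Trp53 and Zmat3 were also above both Cre controls in cKO 3. Trp63 was at 91.0 and 102.2 against 55.0 in cKO 3, on 46 reads, and Mdm2, Cdkn1a, Trp53inp1 and Sesn1 were below both as well. That made 5 genes above and 5 below, while 60.2% of all genes lay outside the 2 Cre controls, 26.9% above and 33.3% below. Including the first-kit cKO libraries, which mixes the kits, 3 genes were above (Ccng1, Phlda3 and Eda2r) and 3 below (Trp63, Cdkn1a and Mdm2) without overlap, against 26.5% of all genes.

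Whether the effect of the deletion differed between stages was tested as an interaction in the 8 first-kit libraries on log2 CPM. Mdm2 was the 1 gene of the 10 called, against 8.45% of 17641 genes. Its log2 CPM was higher in both P16 controls than in both P14 controls, while the cKO libraries of the stages overlapped, and the cKO effect was lower at P16 by 0.34 (a difference of -0.34, SE 0.092, limma adjusted p = 0.04996). That call lay at the threshold: it held in 3 of 13 alternative settings, and it was lost without control 1 or 2 of P14, cKO 2 of P14 or any P16 library (limma adjusted p of 0.0662 to 0.175). The interactions of Eda2r, 0.83 (SE 0.26, limma adjusted p = 0.0847), and of Trp63, 0.54 (SE 0.18, limma adjusted p = 0.0949), were larger in size but missed the threshold.

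**Figure D4:**
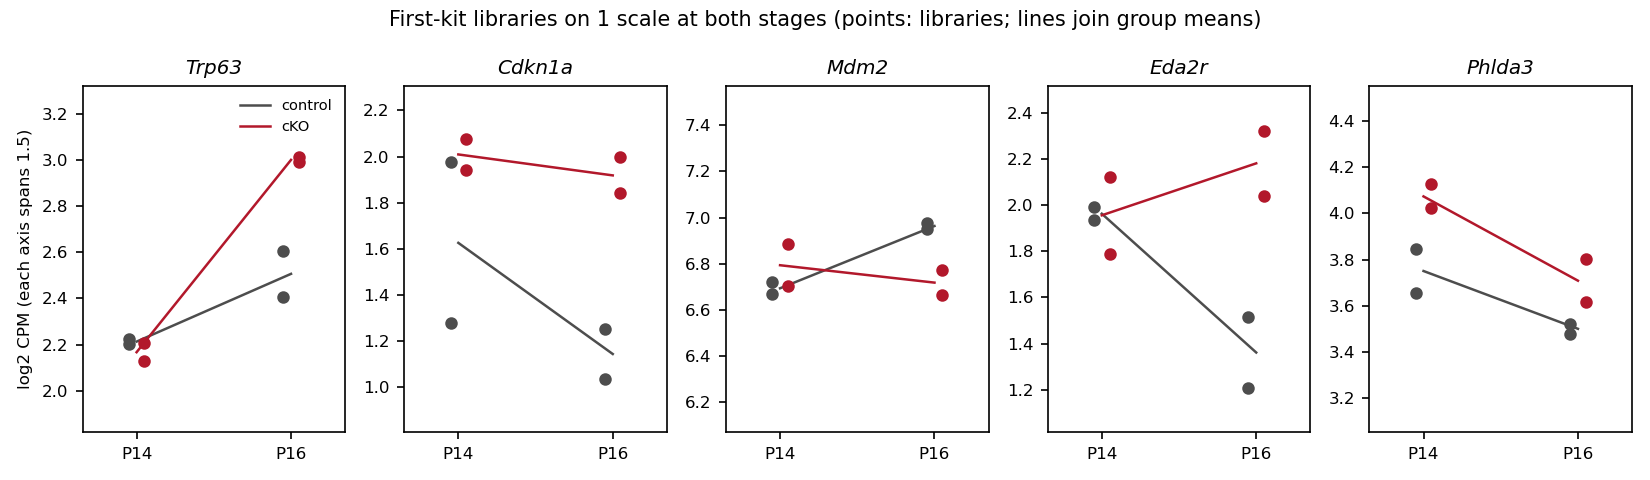
Log2 CPM of 5 of the genes in the first-kit libraries at P14 and P16, with points for libraries and lines between group means in control (grey) and cKO (red), where each y axis spans the same range. Trp63 rises in the cKO by 0.83 and Eda2r falls in the control by 0.60, while Mdm2 rises by 0.27 in the control.

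From P14 to P16 in the controls, 2 of the 10 genes were called, against 20.9% of all genes. Mdm2 rose by 0.27 (SE 0.065, limma adjusted p = 0.0172), and Eda2r fell by 0.60 (SE 0.19, limma adjusted p = 0.0479). The Mdm2 call was lost without control 1 of P14 or either P16 control (limma adjusted p = 0.105, 0.0869 and 0.105, respectively), and the Eda2r call without any control library or either P16 cKO library (0.0612 to 0.249). In the cKO, 2 genes were called as well, against 31.5%. Trp63 rose by 0.83 (SE 0.13, limma adjusted p = 0.00117), a call that held in all 13 alternative settings, and Phlda3 fell by 0.36 (SE 0.10, limma adjusted p = 0.0246), a call lost without cKO 1 of P14 (0.0919) or cKO 1 of P16 (0.165).

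The change with stage in the Cre controls, which share no library with the controls, gave 0 calls among the 10 genes by limma and 1 unadjusted p under 0.05, for Trp53, against 11.6% of all genes called. Mdm2 differed there by 0.19 (SE 0.10, limma adjusted p = 0.258), Eda2r by -0.35 (SE 0.26, limma adjusted p = 0.421) and Trp63 by 0.26 (SE 0.20, limma adjusted p = 0.462). Both P14 Cre controls were sequenced in the run of P16 Cre control 1, and the other P16 Cre controls in another run. Stage and run are thus largely mixed in this comparison.

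Beyond the 10 genes, a list of 46 p53 pathway genes was described in 5 groups, and 45 of its members were tested at P16 with the first kit. Of these, 7 were called higher, 7 lower and 31 were not called, with a median log2 change of -0.05, against the 18.6% higher and 19.9% lower of all genes given above. The gene left out was Trp73, the third family member, with 2 to 17 reads per library. Whether p53 controls each of the listed genes in the mouse testis was not tested.

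Of 9 regulators tested, 1 was higher and 3 lower. Atm, the kinase that reports DNA breaks to p53, fell by 0.67 (SE 0.049, limma adjusted p = 1.03e-06), and Chek2, which relays its signal, fell by 0.32 (SE 0.12, limma adjusted p = 0.0472). Neither fall was seen against the Cre controls at P16, with changes of 0.12 (SE 0.15) for Atm and 0.03 (SE 0.20) for Chek2. Over both control types Atm differed by -0.31 (SE 0.15, limma adjusted p = 0.174) and was not called. The difference between the kits was not tested. Hipk2, a kinase that phosphorylates p53, rose by 0.23. Mdm4, the partner of Mdm2, differed by 0.00432 and was not called.

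Of 10 targets linked to the cell cycle and growth, 1 was higher and 1 lower: Plk2, a polo-like kinase, rose by 0.39 (SE 0.081, limma adjusted p = 0.00218), and Ccng2, the relative of Ccng1, fell by 0.25. Of 10 targets linked to cell death, 0 were higher and 1 was lower, the death receptor gene Tnfrsf10b, which fell by 0.46 (SE 0.15, limma adjusted p = 0.0280). The changes of the apoptosis genes Bax, Bbc3 and Pmaip1 were -0.06, -0.07 and -0.06 and were not called. At P14, Bax and Pmaip1 differed by 0.10 and 0.11, and Bbc3 by 0.72 (SE 0.17, an unadjusted p of 0.00394 and limma adjusted p of 1.00), none of them called, and the difference of the Bbc3 effect between the stages was -0.80 (SE 0.25, limma adjusted p = 0.0796).

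Of 6 genes listed as targets for DNA repair and nucleotide supply, 1 was higher and 2 were lower. Ddb2, which recognises ultraviolet damage in DNA, fell by 1.25 (SE 0.066, limma adjusted p = 5.41e-08), the largest change of the list, while Rrm2b, a subunit of ribonucleotide reductase, rose by 0.28. Of 10 targets linked to metabolism and stress, 4 were higher and 0 lower: Ddit4, an inhibitor of mTORC1 signalling, rose by 0.40 (SE 0.078, limma adjusted p = 0.00159), Sat1, an enzyme of polyamine breakdown, by 0.33, Abhd4, a lipid hydrolase, by 0.32 and Sesn2, a relative of Sesn1, by 0.26. At P14, 0 of the 45 tested were called by limma.

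**Figure D5:**
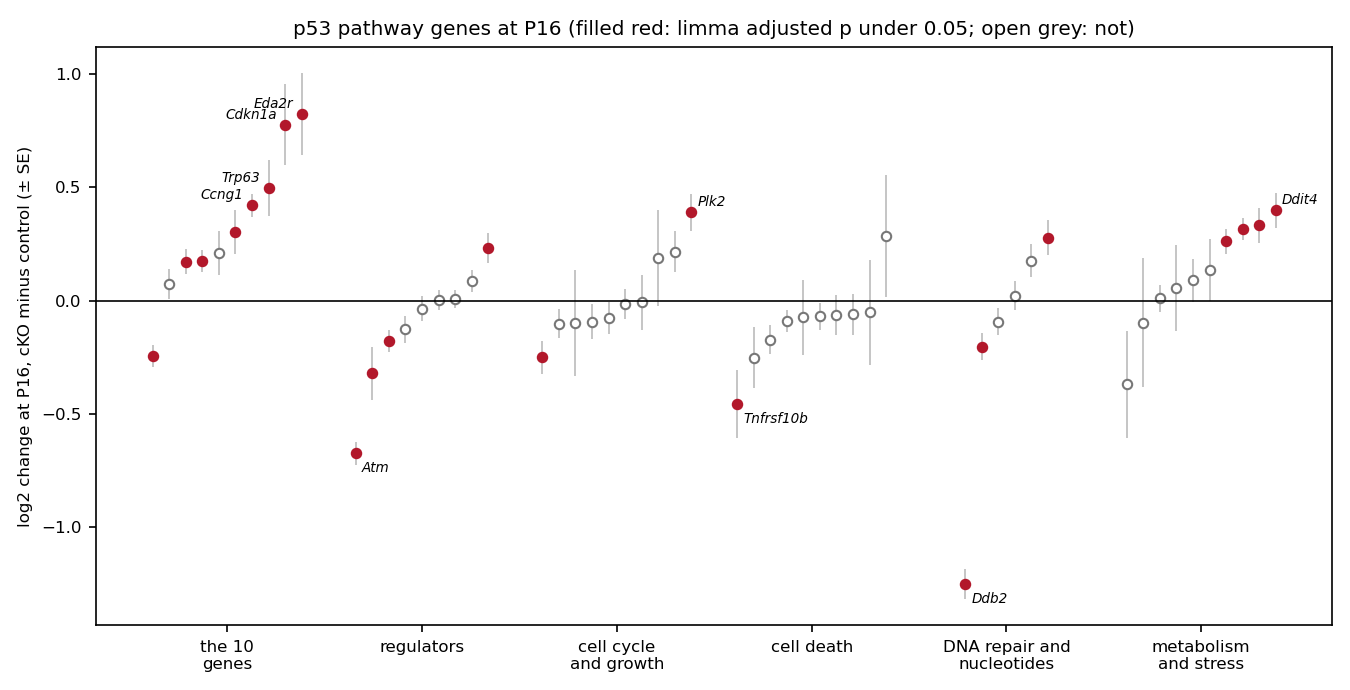
Log2 change at P16 (cKO minus control, ± SE, first kit) of the 10 genes and of the 5 groups of other p53 pathway genes, sorted within each group. Filled red points passed limma's adjusted p of 0.05, and they lie on both sides of 0, from Ddb2 at -1.25 to Eda2r at 0.82.

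In the fit over both control types at P16, 4 of the 46 pathway genes were called higher and 1 lower, against 6.36% and 7.80% of all genes. Rrm2b rose by 0.39 (SE 0.094, limma adjusted p = 0.0213), Plk2 by 0.34 (SE 0.085, limma adjusted p = 0.0248), Abhd4 by 0.27 (SE 0.061, limma adjusted p = 0.0172) and Hipk2 by 0.24 (SE 0.065, limma adjusted p = 0.0340). Ddb2 fell by 0.83 (SE 0.18, limma adjusted p = 0.0145). Against the Cre controls alone at P16, limma called 0 of the 46. Ccng2 differed there by 0.05 (SE 0.14) and Tnfrsf10b by 0.01 (SE 0.24), without the falls of the first kit. Ddb2 differed by -0.33 (SE 0.20), Plk2 by 0.26 (SE 0.12) and Hipk2 by 0.23 (SE 0.0995), each in the direction of the first kit.

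The genes whose log2 CPM over the 8 first-kit libraries was most like that of Eda2r, among 15093 genes, were Mfsd9 (Pearson r = 0.993), Gpd1l (0.960), Ppp1r3c (0.958), Pcdhb20 (0.954) and Mmd (0.952). This is a description over 8 libraries that share their kit and run. The 5 genes were picked for following Eda2r over libraries that include those of P16, so their rise there is no separate result. At P16 these genes differed from control by 0.37 (Gpd1l) to 0.57 (Pcdhb20) on the log2 scale. Pcdhb20 was the 1 of the 5 that limma did not call (adjusted p = 0.101), while 38.6% of all genes were called.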

How the data were processed

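The deposited values are a signal: per the file headers and the submitters' processing notes, reads were trimmed (Trim Galore), aligned (STAR), counted (HTSeq is also named) and scaled (DESeq2) by the authors, with builds GRCm39/mm39, and each table was scaled on its own. Versions and the strand setting are not given in the sources used here. All values above 0 (100% per column, tolerance 0.02 reads) were whole multiples of 1 read, so reads were recovered. STAR's 4 summary rows per table (53.4% to 63.0% of reads) were left out. GENCODE M21 named 52081 of 55414 IDs and gave exon lengths, since it is of another build.

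Within a table, limma 3.58.1 (R 4.3.3, eBayes with trend) was run on log2(value + 1) with genes kept that reached a value of 10 in 2 or more libraries. Across tables it was run on log2 CPM (TMM, edgeR 4.0.16, prior count 1, at least 0.5 CPM in at least 2 libraries). The kit was a covariate wherever both kits entered. The scripts were tested on simulated data. Alternatives were edgeR's quasi-likelihood test and DESeq2 1.42.0 on the recovered reads, pseudocounts of 0.1 and 10, no filter, other scalings, no trend, a replicate block and leaving out each library. The 10 genes and all lists were chosen with earlier results of these data known. Named besides the 10 and Ythdc2 are the called pathway genes with the largest changes (up to 4 each way), those called over both control types, and the 5 genes most like Eda2r. Some other pathway genes (Mdm4, Ccng2, Bax, Bbc3, Pmaip1, Sesn2) and markers (Sox9, Sycp3, Insl3, Acrv1, Hsd3b1, Hspa2) were chosen after their values were seen. No 2 libraries agreed within sampling noise (chi-square per gene at least 2.36, where noise alone gives about 1).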

Additional observations from a re-analysis of the deposited data

Results flagged for a closer look

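With the first kit, the effect of the deletion on Mdm2 was called as differing between the stages by the test of the interaction. The log2 change was 0.10 at P14 and -0.24 at P16 within the tables. Their difference on the common scale was -0.34 (SE 0.092, limma adjusted p = 0.04996). This call lay at the threshold and held in 3 of 13 alternative settings. Against the Cre controls the change was -0.18 at P14 and -0.38 at P16, each resting on 1 cKO library. The difference between those was not tested. In the 4 Cre control libraries of P16, Phlda3 was at 331.6 in library 2 and at 270.4 to 274.7 in the other 3, a gap beyond Dixon's 95% critical value for 4 samples. Of the 10 groups tested this way it was the only 1, and chance gives about 1 in 20. Their causes were not tested.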

How the results depend on the processing

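No direction of a called gene turned under any of the alternatives run, and the counts below are called genes. Among the 10 genes at P16 against control, limma without trend called 2 (Ccng1 and Cdkn1a) in place of 8, and leaving out single libraries gave 5 to 7. Over both control types at P16, no trend gave 1 (Eda2r) in place of 3, and leaving out a library 0 to 4. Against Cre control at P16, the fit without the kit called 3 in place of 0. The interaction's 1 call was 0 without filter, without trend and with DESeq2 size factors, and 0 to 1 with a library left out. The stage effect in control was 1 with edgeR, 1 without filter and 0 without trend in place of 2, and 0 to 3 with a library left out, and in the cKO it was 1 to 2.

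Over all genes, the P14 count of 1 was 0 without filter or trend, 6 with DESeq2, 5 with the replicate block and 0 to 11 with a library left out. Over both control types at P14 it was 0 without trend. Against Cre control, edgeR and a pseudocount of 10 each called 1 gene at P14 in place of 0 (0 to 6 with a library left out), and at P16 the count of 1 was 1741 without the kit (825 higher, 916 lower), 475 without filter, 0 with edgeR, 0 without trend, 0 with the replicate block and no kit, and 0 to 256 with a library left out. Without trend the counts were 1806 in place of 6939 (P16 against control), 1191 in place of 2738 (both control types at P16), 184 in place of 1491 (interaction), 2311 in place of 3691 (stage in control) and 833 in place of 2228 (stage in Cre control). Leaving out a library gave 4591 to 7045, 683 to 3355, 287 to 3160, 1668 to 4709 and 593 to 2771 for the same 5, and 3486 to 5418 in place of 5559 for stage in the cKO. Without filter the interaction gave 727 and the Cre stage effect 49. Where a library left out leaves an arm with a lone sample, that sample is assumed to vary like the others. Replicate numbers are shared by the groups, but deviations of same-numbered libraries correlated by 0.203 (P14) and 0.0798 (P16), and the labels do not pair them. The replicate block moved the interaction to 2349 and gave 3 in place of 2 of the 10 genes for stage in control, with the other counts of the 10 as before. The cause of these shifts was not tested. The Cre comparisons without cKO 3 were not run, since kit and genotype then cannot be told apart. At 39 to 189 reads per library at P16, counting error limits Eda2r and Cdkn1a most.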
